A study of Mus musculus with 6 samples.

Results

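The genes described here encode subunits of the receptors for GABA and glutamate, the main inhibitory and excitatory transmitters of the brain. They were chosen by name, but with earlier results of these data known. Of 36 genes listed, 35 had a row in the tables of 27378 genes, and 34 were expressed enough to be tested (mean of at least 1 FPKM, fragments corrected for the length of the gene and the library's read total). Grm6 had no row and is not analysed here. The list does not hold every gene of these families.

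Whole brain RNA was sequenced from male C57BL/6J mice, an inbred laboratory strain, of wild-type genotype. The PS group received polystyrene nanoplastics, a particle pollutant, through the nose over 28 days, and the control group received sterile distilled water by the same route over the same 28 days. Each group held 3 libraries, and neither the age of the mice nor the dose is given in the sources used here. The labels do not say that each library came from a separate animal, so each p-value is set against a spread that could be technical as well as biological. The FPKM values rest on 39239183 to 40335590 reads a library, and the 34 tested genes had 499 to 30316 reads each in a library. Markers of neurons, astrocytes and oligodendrocytes were all present, as the label of whole brain requires. Control replicate 2 stood apart on the first principal component, at -17.5 against -2.93 to 8.21 in the other 5 libraries. In whole tissue, fewer cells of a type and less RNA per cell cannot be told apart.

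GABA-A receptors are chloride channels built as pentamers, mostly of alpha, beta and gamma or delta subunits, and they carry fast inhibition. GABA-B receptors are G protein-coupled dimers of a GABA-binding and a trafficking subunit, and they carry slow inhibition. Glutamate opens the AMPA, NMDA and kainate receptors, which are tetrameric cation channels, and also acts on the metabotropic (mGlu) receptors, which signal through G proteins and often sit on nerve terminals as a brake on release. Which subunits a neuron makes sets the calcium permeability, the kinetics and the place of its receptors.

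One such property lies in a single codon of the pore loop of AMPA and kainate subunits, the Q/R site. In Gria2, Grik1 and Grik2 its glutamine codon is known to be changed in the RNA by adenosine editing, which in Gria2 makes the channel nearly impermeable to calcium. Impaired editing at the Gria2 site is known from motor neurons in amyotrophic lateral sclerosis, the disease whose symptoms the title of the series names. The genomic coding stretches are shown because the AMPA and kainate levels given further on are levels of mRNAs that carry this codon. They were read from GENCODE M21 transcripts (build GRCm38), 5′ to 3′, 27 bases each, with the Q/R codon in capitals.
Gria1: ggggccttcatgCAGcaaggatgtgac
Gria2: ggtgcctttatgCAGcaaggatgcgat
Gria3: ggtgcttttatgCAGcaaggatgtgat
Gria4: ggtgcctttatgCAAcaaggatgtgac
Grik1: ggagctctcatgCAGcaaggatcggag
Grik2: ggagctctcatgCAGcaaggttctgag
Grik3: ggctccctgatgCAGcaaggatctgaa
Grik4: ggaggcttcatgCAGcaaggctccact
Grik5: ggtggcttcatgCAGcagggctcggag
All 9 genes have a glutamine codon at this place in the genome, CAA in Gria4 and CAG in the other 8. FPKM values count fragments and hold no base calls, so the share of edited Gria2 RNA is not measured by these data.

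No receptor gene passed the test for a difference between PS and control brains. Of the 34 tested, 0 were called at an adjusted p under 0.05 (limma on log2(FPKM + 1), Benjamini-Hochberg over all 12229 tested genes), against 0.164% of all tested genes. At an unadjusted p under 0.05, 2 were higher (Grm7 and Grm3) and 0 lower, against 5.94% of all genes in either direction. limma-voom on recovered read numbers, and limma with the replicate number as a block, also called 0, against 0.237% and 0.393% of all genes, each with 4 receptor genes (Grm7, Grm3, Grm4 and Gabrb1, all higher) at an unadjusted p under 0.05, against 6.13% and 7.76% of all genes. Log2 fold changes, PS over control throughout and on the log2(FPKM + 1) scale that understates changes of low genes, ran from -0.06 in Gabra5 to 0.58 in Grm7. Of the 34, 28 were above 0, where 51.4% of all genes were, and the median was 0.05 against 0.003 over all genes. The sign was less one-sided without control replicate 1 (22 above 0, median 0.018), PS replicate 1 (23, median 0.038), control replicate 3 (24, median 0.036) or PS replicate 2 (26, median 0.062). It was more one-sided without control replicate 2 (30, median 0.103), and 28 were above 0 without PS replicate 3 (median 0.078). In 33 of the 34 the 95% interval on this log2(FPKM + 1) scale lay within a 1.5-fold difference either way, and Grm7 was the exception. In FPKM itself the intervals of low genes are wider.

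**Figure D1:**
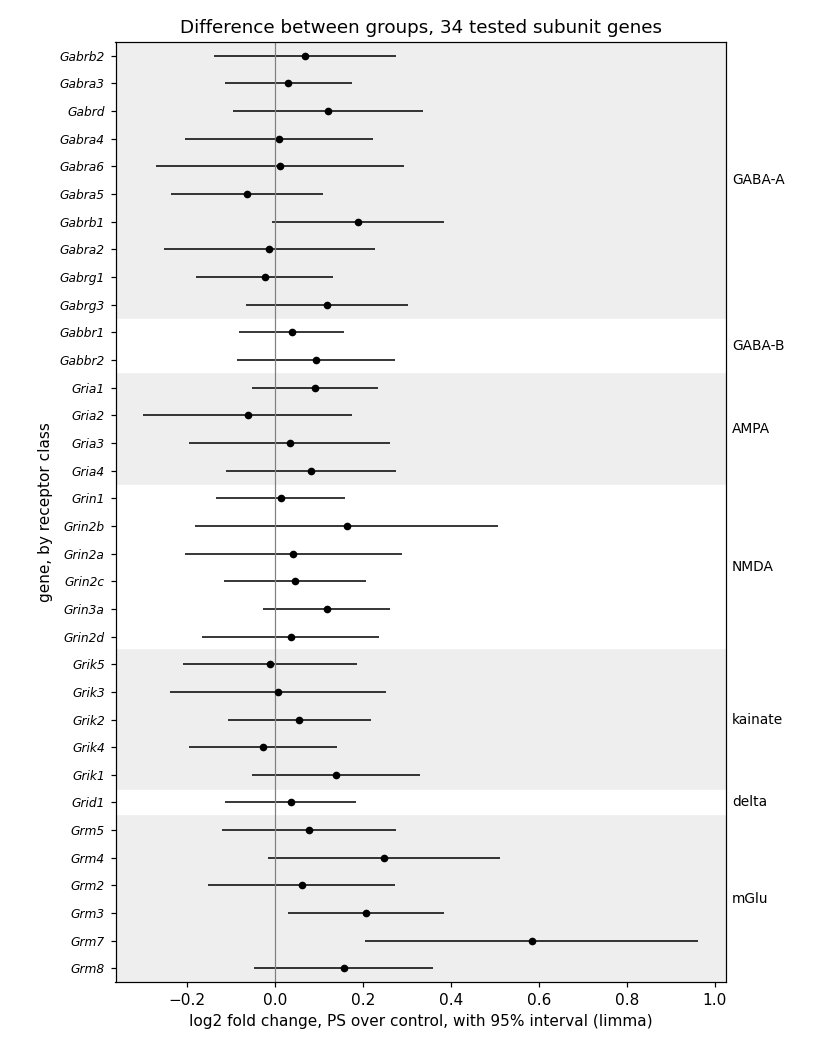
Log2 fold change of PS over control for the 34 tested receptor genes (points, x axis) with limma's 95% interval (bars), grouped by receptor class on the y axis. The intervals of Grm7 and Grm3 lie above 0, and the other 32 include 0.

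Of the metabotropic glutamate receptors, 6 were tested and all 6 had log2 fold changes above 0, with a median of 0.18, and none was called. Grm7, a group III receptor of presynaptic active zones, stood at 3.25, 3.31 and 5.82 FPKM in control replicates 1, 2 and 3 and at 6.80, 6.84 and 5.86 in PS replicates 1, 2 and 3. The groups did not overlap, but control replicate 3 lay beside PS replicate 3 and far above the other 2 controls. In reads, the controls held 801, 806 and 1434 and the PS libraries 1693, 1714 and 1458, so counting error is small beside the gap within the controls. The fold change on the log2 scale was 0.58 (SE 0.167, limma unadjusted p = 0.00691, adjusted p = 0.538, and adjusted p = 0.229 with the replicate block). Without control replicate 3 it was 0.81, and that fit called Grm7 (adjusted p = 0.0117) along with 0.54% of all genes. Without control replicate 1 it was 0.47 (limma unadjusted p = 0.0307, adjusted p = 0.996), in a fit that called 2 genes in all. With sample weights it was 0.77 (adjusted p = 0.00466), in a fit that called 5.17% of all genes and gave control replicate 1 a weight of 6.01, control replicates 2 and 3 weights of 0.326 and 0.353, and the PS libraries 0.925 to 1.32. Over all alternatives the adjusted p of Grm7 ran from 0.00466 to 1. The log2 range of Grm7 over the 3 controls was 0.68, wider than in 98.4% of the 1398 genes of like control level (within 0.25 on the log2 scale).

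Grm3, a group II receptor of neurons and astrocytes, stood at 6.48, 6.72 and 6.18 FPKM in control and at 8.19, 6.78 and 7.93 in PS. The groups did not overlap, by a narrow margin between control replicate 2 and PS replicate 2. Its log2 fold change was 0.21 (SE 0.0783, limma adjusted p = 0.752, unadjusted p = 0.0269). All 6 astrocyte markers had log2 fold changes above 0, none called, and their summed level was 362 to 378 FPKM in control and 368 to 400 in PS, with none at 0. Of 6 markers of oligodendrocyte precursors, 5 were above 0, none was called and none was at 0 FPKM. These 5 each had an unadjusted limma p under 0.05 and no overlap between groups, against 5.94% and 11.3% of all genes in either direction. The lowest limma adjusted p was 0.0828, in Sox10. The exception was Pdgfra, with a log2 fold change of -0.08. It stood at 6.99, 7.83 and 8.34 FPKM in control and 7.36, 7.03 and 7.36 in PS. Summed levels of the 6 were 85.3 to 102 FPKM in control and 109 to 113 in PS. Olig1 held the largest part, at 47.4 to 63.4 in control and 63.4 to 66.8 in PS. All 6 myelin and oligodendrocyte markers were above 0 as well, with a median log2 fold change of 0.23 and none called. The part of these cells in the Grm3 values was not tested.

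Grm4, a group III receptor abundant in cerebellar granule cells, stood at 8.45, 10.1 and 9.32 FPKM in control and 13.8, 10.2 and 9.97 in PS. PS replicate 1 alone stood clear of the rest, and PS replicate 3 lay below control replicate 2. The log2 fold change was 0.25 (limma adjusted p = 0.844), and 0.11 without PS replicate 1. The summed level of 8 granule cell markers was also highest in PS replicate 1, at 183 FPKM against 119 to 141 in the other 5 libraries, with none at 0. The order of the other libraries differed. In PS replicate 2 the sum was 127 FPKM, below control replicates 2 and 3 at 134.5 and 136.2, while Grm4 was above both. In the test 7 of the 8 were above 0 and none was called, and their part in the Grm4 values was not tested. Summed markers of Purkinje cells and of thalamus were also highest in PS replicate 1. They were at 395 and 79.1 FPKM there and at 276 to 335 and 49.4 to 64.8 elsewhere. Summed markers of cortical excitatory neurons, hippocampus, striatum and olfactory bulb were highest in control replicate 2. Grm5, the postsynaptic group I receptor and the most abundant mGlu member, stood at 16.9, 20.8 and 16.5 FPKM in control and 19.3, 19.6 and 18.2 in PS. The ranges overlapped, since control replicate 2 was the highest of all. Grm2, a group II presynaptic receptor, averaged 9.83 ± 1.41 FPKM in control and 10.2 ± 0.57 in PS (SD, n = 3 each, as in all means below). Grm8, a further group III receptor and the lowest of the class, was at 2.70, 2.59 and 2.76 in control and 3.33, 3.42 and 2.61 in PS. PS replicates 1 and 2 lay above the controls and PS replicate 3 among them, and the log2 fold change was 0.16 (limma adjusted p = 0.903). Summed over the 6 genes, mGlu levels were 46.8, 55.0 and 49.7 FPKM in control and 61.3, 57.7 and 54.5 in PS, with PS replicate 3 just under control replicate 2.

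**Figure D2:**
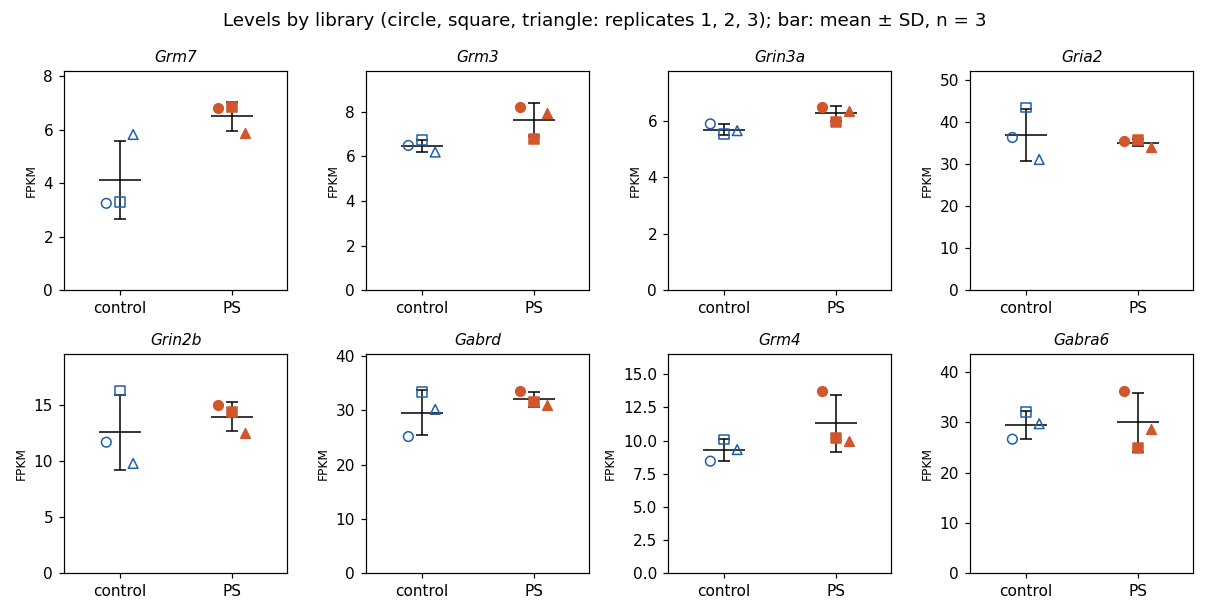
FPKM (y axis, from 0) of 8 receptor genes in each control and PS library, with the mean and SD of the 3 libraries of each group. Control replicate 3 of Grm7 sits at 5.82, next to the PS libraries, and PS replicate 1 is the highest library for Grm4 and Gabra6.

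NMDA receptors pair the obligatory subunit encoded by Grin1 with regulatory subunits that set kinetics. None of 6 tested genes was called, all 6 had log2 fold changes above 0, and the median was 0.04. Grin1 was the highest, at 96.9, 112 and 103 FPKM in control and 106, 106 and 102 in PS. The PS values lay inside the control range, and the difference on the log2 scale was 0.01 with a 95% interval from -0.134 to 0.160. Grin2b, the regulatory subunit dominant in the young forebrain and retained in adults, stood at 11.7, 16.3 and 9.82 FPKM in control and 15.04, 14.4 and 12.5 in PS. Its controls spread over 0.68 on the log2 scale, wider than in 99.4% of 1260 genes of like level, and enclosed all 3 PS values. Its log2 fold change of 0.16 (limma adjusted p = 0.975) became 0.35 without control replicate 2 (adjusted p = 0.483) and 0.01 without control replicate 3 (adjusted p = 0.981). Grin2a, the subunit that gains on Grin2b as synapses mature, averaged 7.16 ± 1.34 FPKM in control and 7.33 ± 0.388 in PS. The ratio of Grin2a to Grin2b was 0.576, 0.530 and 0.618 in control and 0.514, 0.506 and 0.555 in PS. PS replicate 3 lay above control replicate 2, and the difference of -0.13 on the log2 scale did not pass an exact two-sided permutation test (p = 0.2, adjusted p = 0.933 over 7 ratios, smallest possible p = 0.1). If same-numbered libraries are set in pairs, which the labels do not state, the ratio was lower in PS in all 3 pairs. The sign-flip permutation p was 0.25, the smallest that 3 pairs allow, so this test could not go under 0.05. The same held for the ratios of Grik5 to Grik2 and of Grm5 to Grm3. Each of the remaining ratios was lower in PS in 2 of 3 pairs.

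Grin3a, whose subunit lowers calcium flow through NMDA receptors, stood at 5.90, 5.54 and 5.66 FPKM in control and 6.49, 5.97 and 6.35 in PS. All 3 PS values were higher, control replicate 1 and PS replicate 2 being close, with a log2 fold change of 0.12 (limma adjusted p = 0.88). Grin2c, a subunit of cerebellar granule cells and astrocytes, averaged 6.17 ± 0.463 FPKM in control and 6.39 ± 0.239 in PS. Grin2d, found mainly in interneurons and deep brain regions, averaged 2.75 ± 0.368 and 2.84 ± 0.168. Grin3b, known from motor neurons, was the lowest receptor gene and fell outside the filter, at 0.119, 0.0335 and 0.199 FPKM in control and 0.237, 0.326 and 0.145 in PS. These values rest on 18, 5 and 30 reads in control and 36, 50 and 22 in PS, and the groups overlap.

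No overlap between groups was found for 3 of the 34 tested genes, Grm7, Grm3 and Grin3a, all higher in PS. Among all tested genes 11.3% showed none, 4.93% higher and 6.33% lower, so 3 of 34 is near that background. After each library was rescaled to the total without mitochondrial genes, only Grm7 of the 34 kept its groups apart, against 10.7% of all genes. After rescaling by the median ratio Grm7, Grin3a and Gabbr1 were apart and Grm3 was not, against 11.3% of all genes.

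AMPA receptors carry most fast excitation. Of 4 genes, 3 had log2 fold changes above 0, none was called, and the median was 0.06. Gria1, encoding a subunit that reaches synapses with activity, was the highest at 66.9, 75.6 and 68.5 FPKM in control and 73.1, 77.5 and 74.2 in PS. Control replicate 2 lay among the PS values. Gria2 stood at 36.4, 43.6 and 31.2 FPKM in control and 35.5, 35.7 and 34.2 in PS. The controls were widely spread around 3 nearly equal PS values, with a control range of 0.47 on the log2 scale, wider than in 96.6% of 652 genes of like level. Its log2 fold change was -0.06 (limma adjusted p = 0.983), 0.06 without control replicate 2 and -0.18 without control replicate 3. The ratio of Gria2 to Gria1 was 0.544, 0.576 and 0.455 in control and 0.485, 0.461 and 0.461 in PS (exact two-sided permutation p = 0.4, adjusted p = 0.933 over 7 ratios). Control replicate 3 had the lowest ratio of all 6 libraries, and the other 2 controls the highest. Gria3 averaged 28.2 ± 3.87 FPKM in control and 28.8 ± 2.45 in PS. Gria4, encoding a subunit of fast receptors in interneurons, thalamus and cerebellum, was the lowest at 24.4, 22.9 and 24.5 FPKM in control and 29.1, 23.1 and 24.3 in PS. PS replicate 1 alone stood out, and the log2 fold change of 0.08 was -0.01 without it.

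Kainate receptors combine low-affinity subunits (Grik1, Grik2 and Grik3) with high-affinity ones (Grik4 and Grik5) that need them to form channels. Of these 5 genes 3 had log2 fold changes above 0, none was called, and the median was 0.01. Grik5 was the highest, at 13.5, 16.7 and 14.9 FPKM in control and 13.5, 15.5 and 15.5 in PS. The PS values lay inside the wider control range. Grik1, known from interneurons, was the lowest at 2.38, 2.13 and 2.72 FPKM in control and 2.65, 2.94 and 2.66 in PS, with control replicate 3 among the PS values (limma log2 fold change 0.14, adjusted p = 0.918). Grik3 averaged 8.68 ± 1.49 FPKM in control and 8.67 ± 0.651 in PS. Grik2 averaged 3.02 ± 0.208 and 3.17 ± 0.132, and Grik4 3.13 ± 0.0633 and 3.06 ± 0.276. The ratio of Grik5 to Grik2 was 4.80, 5.17 and 4.91 in control and 4.10, 5.12 and 4.85 in PS (exact two-sided permutation p = 0.6). Grid1, a delta receptor that binds cerebellins at synapses and is not opened by glutamate, stood at 9.38, 10.6 and 10.6 FPKM in control and 10.5, 10.6 and 10.4 in PS, a log2 fold change of 0.04 with a 95% interval from -0.114 to 0.185.

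**Figure D3:**
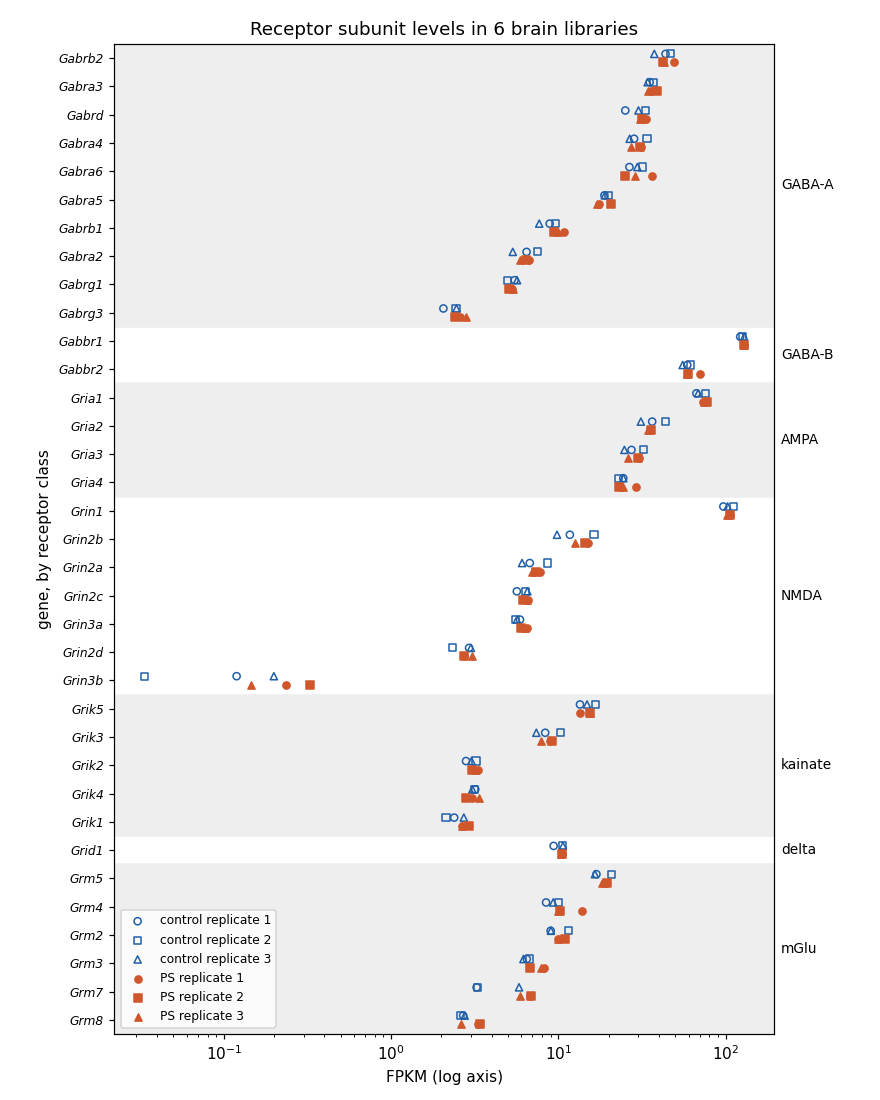
FPKM (x axis, log scale) of the 35 receptor genes with a row, by receptor class (y axis), one symbol per library with controls open and PS filled. Levels run from Grin3b under 1 to Gabbr1 at about 127, and in most genes the symbols of both groups intermix.

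Among GABA-A subunits 10 genes were tested, 7 had log2 fold changes above 0, none was called, and the median was 0.02. Gabrb2, a beta subunit widespread in adult brain, was the highest at 43.7, 46.7 and 37.5 FPKM in control and 49.1, 42.0 and 42.8 in PS. PS replicate 1 was the highest library and the rest intermixed. Gabrg3, a rare gamma subunit, was the lowest at 2.06, 2.45 and 2.46 FPKM in control and 2.60, 2.42 and 2.79 in PS. Only control replicate 1 lay below the whole PS range, and the log2 fold change was 0.12 (limma adjusted p = 0.945). Gabrb1, another beta subunit, had the largest log2 fold change of the class, 0.19 with a 95% interval from -0.007 to 0.384 (limma adjusted p = 0.844), and averaged 8.73 ± 0.979 FPKM in control and 10.1 ± 0.671 in PS.

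The subunits of extrasynaptic receptors, which carry tonic inhibition, included Gabrd, Gabra4, Gabra5 and Gabra6. Gabrd, the delta subunit of granule cells and thalamus, stood at 25.1, 33.4 and 30.1 FPKM in control and 33.6, 31.5 and 31.0 in PS. Control replicate 1 alone lay clearly below the rest, and the log2 fold change of 0.12 (limma adjusted p = 0.955) was 0.01 without it. With sample weights, which favour that library, Gabrd had a log2 fold change of 0.30 and was called (adjusted p = 0.0408, and up to 1 under the other alternatives). The weighted fit called 5.17% of all genes. Gabra6, made almost only by cerebellar granule cells, stood at 26.6, 32.0 and 29.7 FPKM in control and 36.2, 24.9 and 28.6 in PS. PS replicate 1 was the highest and PS replicate 2 the lowest of all 6, as they were among the PS libraries for the summed granule cell markers (183 and 127 FPKM). Its log2 fold change was 0.01, and -0.13 without PS replicate 1. Gabra4, of thalamus, striatum and dentate gyrus, averaged 29.6 ± 3.75 FPKM in control and 29.8 ± 2.31 in PS. Gabra5, enriched in hippocampus, averaged 19.2 ± 0.538 and 18.4 ± 1.93.

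The remaining GABA-A subunits were Gabra3, known from monoaminergic and thalamic reticular neurons, at 35.5 ± 1.49 FPKM in control and 36.3 ± 2.16 in PS, Gabra2, an alpha subunit of the forebrain, at 6.44 ± 1.10 and 6.33 ± 0.402, and Gabrg1, a gamma subunit also found in glia, at 5.37 ± 0.365 and 5.26 ± 0.151. All 3 were near 0 on the log2 fold change scale, from -0.02 to 0.03. Several of these genes are direct neighbours on their chromosomes in the RefSeq annotation of GRCm38.p6, namely Gabra2 with Gabrg1, Gabra4 with Gabrb1, Gabra5 with Gabrg3 and Gabra6 with Gabrb2. The mean over all libraries was 6.39 FPKM in Gabra2 and 5.31 in Gabrg1, 29.7 in Gabra4 and 9.40 in Gabrb1, 18.8 in Gabra5 and 2.46 in Gabrg3, and 29.7 in Gabra6 and 43.6 in Gabrb2. Levels were thus close in the first pair and far apart in the pairs of Gabra4 and Gabra5. Log2 fold changes were -0.01 and -0.02, 0.01 and 0.19, -0.06 and 0.12, and 0.01 and 0.07 in these pairs, and no test compared the genes of a pair.

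Neither GABA-B gene was called, and both had log2 fold changes above 0. Gabbr1, encoding the GABA-binding subunit, was the most abundant receptor gene, at 122, 126 and 129 FPKM in control and 129, 129 and 130 in PS. All 3 PS values stood at the top of the control range, overlapping control replicate 3, with a log2 fold change of 0.04 and a 95% interval from -0.081 to 0.158. Gabbr2, encoding the subunit that takes the receptor to the surface and couples it to G proteins, stood at 59.0, 62.0 and 55.4 FPKM in control and 70.1, 59.7 and 59.1 in PS. PS replicate 1 stood out, and the ratio of Gabbr1 to Gabbr2 was lowest there, at 1.84 against 2.02 to 2.33 in the other 5 libraries. The exact two-sided permutation test of this ratio gave p = 0.7, where 3 libraries against 3 cannot go below 0.1. Summed over the listed genes, glutamate receptors stood to GABA receptors at 0.972, 1.03 and 0.978 in control and 0.972, 1.03 and 0.999 in PS (exact two-sided permutation p = 1). The sums cover only listed genes, so they are no measure of all receptors.

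Libraries of 1 group often differed by more than the groups did. In 22 of the 34 genes the difference of means was smaller than the SD of the controls, close to the 70.6% of all tested genes. Of the 3 controls, replicate 2 was the highest in 22 of 34 receptor genes, against 33.6% of all tested genes. Cortical excitatory markers, 8 genes with none at 0, summed to 446 FPKM in that library, to 365 and 362 in the other controls and to 367 to 412 in PS. Most of each sum was Slc17a7 alone. It stood at 270.4, 346.5 and 273.0 FPKM in control replicates 1, 2 and 3 and 280.4 to 311.1 in PS. Myelin and oligodendrocyte markers, 6 genes with none at 0, summed to 1060 FPKM in control replicate 2 and to 1413 to 1650 elsewhere. Of the PS libraries, replicate 1 was the highest in 16 of 34, against 32.6% of all genes. Over all 6 libraries, the highest value of a receptor gene lay in control replicate 1, 2 or 3 for 0, 11 and 2 genes (13.7%, 23.7% and 23.0% of all genes) and in PS replicate 1, 2 or 3 for 11, 6 and 4 (13.8%, 14.4% and 11.4%). The lowest lay in control replicate 1, 2 or 3 for 12, 6 and 13 genes (13.9%, 30.0% and 17.9%) and in PS replicate 1, 2 or 3 for 0, 2 and 1 (15.3%, 11.7% and 11.2%). Control replicates 1 and 3 thus held most of the lowest values, and control replicate 2 and PS replicate 1 most of the highest. Whether tissue composition accounts for these library differences was not tested.

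**Figure D4:**
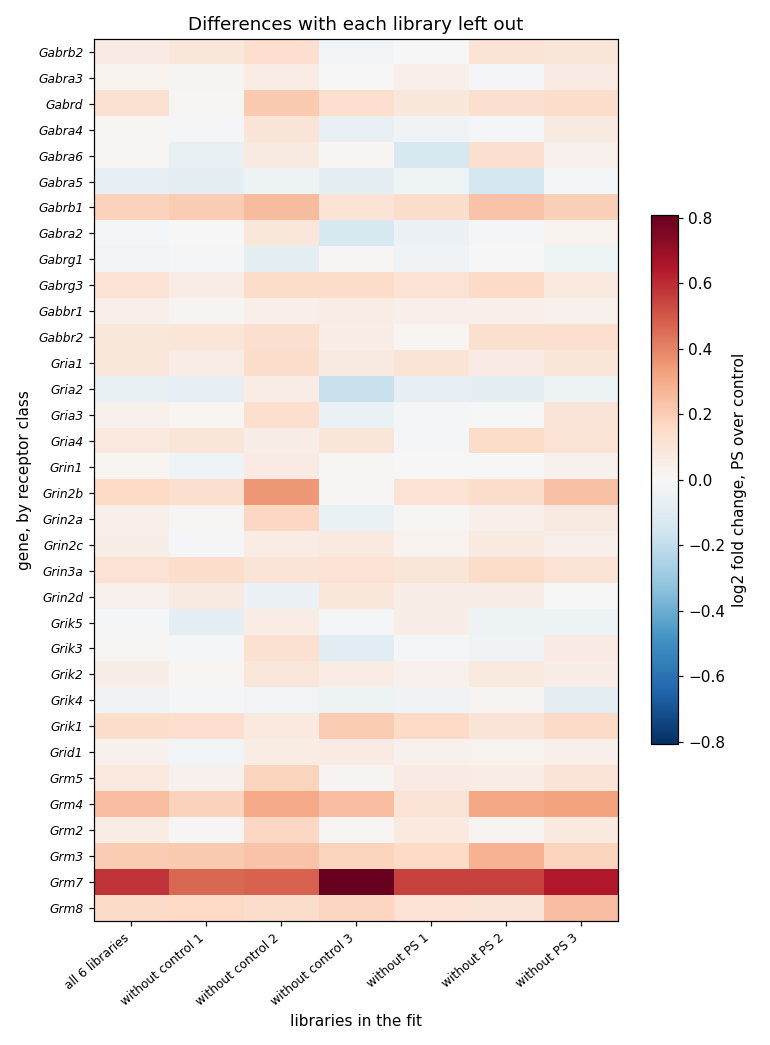
Colour gives the log2 fold change of PS over control for the 34 tested genes (y axis) with all 6 libraries and with each library left out in turn (x axis). Grm7 is above 0 in every column, at 0.47 to 0.81, while Gria2, Gabra6 and several others change sign between columns.

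The partner genes of these receptors, from 6 lists of general knowledge, gave the same count of calls. Of 77 genes 75 were tested and 0 were called in either direction, against 0.164% of all tested genes. Log2 fold changes were above 0 in 43, where 51.4% of all genes were, and the median was 0.01 against 0.003 over all genes. At an unadjusted p under 0.05, 3 were higher (Cbln1, Cbln3 and Slc1a6) and 0 lower, against 5.94% of all genes in either direction. Among 16 auxiliary genes of AMPA receptors, 11 were above 0 and the lowest p belonged to Nptx2, an activity-induced pentraxin that clusters AMPA receptors, with means of 13.9 ± 1.66 FPKM for control and 11.9 ± 1.24 for PS (difference on the log2 scale -0.20, limma adjusted p = 0.851). Next came Cacng8 and Shisa6, auxiliary subunits, with log2 fold changes of 0.08 and 0.09. With 1 library left out these ran from 0.003 (without PS replicate 1) to 0.163 in Shisa6, from 0.038 (without PS replicate 2) to 0.138 in Cacng8 and from -0.267 to -0.113 (without control replicate 2) in Nptx2. Of 9 partners of kainate, delta and NMDA receptors, 6 were above 0. Cbln1 and Cbln3, cerebellins secreted by granule cells, were at 44.7 ± 7.88 and 36.4 ± 6.42 FPKM in control and 58.3 ± 9.14 and 49.1 ± 11.5 in PS, with log2 fold changes of 0.38 and 0.41 (limma adjusted p = 0.717 and 0.795). Both were highest in PS replicate 1, as was the sum of the granule cell markers, a list that also holds Cbln3. Cbln4, a cerebellin of other brain regions, had a log2 fold change of -0.10.

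Of 16 tested excitatory scaffold genes 5 were above 0, and Homer3, Pick1 and Homer2 had the lowest p, with log2 fold changes of 0.17, 0.10 and -0.14 (limma adjusted p = 0.93 to 0.969). Homer3 was at 0.057 without PS replicate 1 and Homer2 at -0.006 without control replicate 2. Of 11 genes that anchor or traffic inhibitory receptors 7 were above 0, and Plcl2, Clptm1 and Gabarap had log2 fold changes of -0.10, 0.08 and 0.07. Of 5 GABA-B partners 2 were above 0, with Kctd8, Kctd12 and Ajap1 at 0.06, -0.06 and -0.04. Among 18 tested genes of transmitter synthesis and transport 12 were above 0. Slc1a6, the glutamate transporter of Purkinje cells, had means of 5.02 ± 0.0984 FPKM for control and 5.93 ± 0.629 for PS (difference on the log2 scale 0.20, limma adjusted p = 0.771), without overlap between groups. Of the 75 partner genes 2 had no overlap, Slc1a6 higher and Cbln4 lower, fewer than the 11.3% of all genes. All 6 Purkinje cell markers had log2 fold changes above 0, none called and none at 0 FPKM, with summed levels of 298 to 306 FPKM in control and 276 to 395 in PS, and their part in the Slc1a6 values was not tested. Slc38a2, a glutamine transporter, and Glul, the glutamine synthetase of astrocytes, had log2 fold changes of -0.28 and -0.11 (limma adjusted p = 0.845 and 0.945).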

How the data were processed

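The authors deposited 1 table of FPKM values for each of 6 libraries, keyed by gene symbol. Fastp, HISAT2, HTSeq, R 3.2.0 and build GRCm39 are named, per the submitters' processing notes, without order or settings, so whether counting used strand is unknown here. Values of genes that overlap others are therefore uncertain. Libraries were built from TRIzol-extracted total RNA, per the labels' protocols.

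Read totals and gene lengths that make the FPKM values whole were searched for, and 99.99% of 26556 genes above 0 then had read numbers within 0.02 of a whole number in all 6 libraries. The main test was limma 3.58.1 in R 4.3.3 on log2(FPKM + 1), group only, with a variance trend, two-sided, for 12229 genes (mean FPKM 1 or more), with Benjamini-Hochberg adjustment over them. It was tested on simulated data. Ratios of FPKM were compared with exact permutation tests, 7 in all.

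Receptor genes and lists were chosen with earlier results of these data known. All 36 listed genes are named, and up to 3 per partner list by lowest p. Deviations from the group mean correlated weakly between libraries with the same replicate number (0.181, 0.185 and 0.161). Between different numbers the correlations were -0.217 to 0.0253. With 3 libraries a group these values depend on each other, and the labels state no such pairing. A replicate block in the limma model was therefore tried. Also tried were limma-voom on recovered reads, sample weights, no variance trend, pseudocounts of 0.1 and 0.5, different filters and rescalings, an unadjusted p with a fold rule, and leaving out each library.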

Additional observations from a re-analysis of the deposited data

How the results depend on the processing

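Of 572 values of receptor genes under 17 alternatives, 535 kept direction and side of the threshold, 34 reversed and 3 gained a call. With sample weights Grm7 and Gabrd were called, 2 receptor genes against 0, with 3 partner genes (Cbln1, Cbln3 and Slc38a2) and 632 genes in all against 20. Leaving out 1 library gave 0 to 1 called receptor genes (Grm7, without control replicate 3) and 0 to 66 genes in all. Genes called were 1 with no filter, 9 with a mean FPKM of at least 5, 44 at an unadjusted p under 0.05 with a 1.5-fold difference, and 48 with the replicate block, which called 0 receptor genes and changed no other call given here. Receptor genes without overlap numbered 1 after rescaling without mitochondrial genes, against 10.7% of all genes. They numbered 3 to 14 with 1 library left out, the 14 without control replicate 2, where 22.5% of all genes had none. Without control replicates 1 and 3 they numbered 4 and 6, against 17.6% and 32.3% of all genes, and without PS replicates 1, 2 and 3 they numbered 3, 6 and 6, against 18.5%, 18.9% and 19.1%.

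Signs reversed for log2 fold changes near 0, and the cause was not tested. After rescaling without mitochondrial genes Gabra4 was at -0.000288 and Grik3 at -0.002, and after quantile normalization Grin1 was at -0.009. With sample weights Grin2d was at -0.019, Grik5 at 0.12, Kctd8 at -0.042 and Ajap1 at 0.033. With 1 library left out the log2 fold change ran from -0.123 to 0.091 in Gabra2, -0.014 to 0.067 in Gabra3, -0.06 to 0.106 in Gabra4, -0.131 to 0.131 in Gabra6, -0.02 to 0.135 in Gabrb2 and -0.07 to 0.011 in Gabrg1. It ran from -0.177 to 0.059 in Gria2, -0.051 to 0.135 in Gria3, -0.014 to 0.148 in Gria4, -0.035 to 0.066 in Grin1, -0.055 to 0.169 in Grin2a, -0.009 to 0.081 in Grin2c and -0.048 to 0.084 in Grin2d. It ran from -0.09 to 0.125 in Grik3, -0.077 to 0.021 in Grik4, -0.08 to 0.063 in Grik5, -0.019 to 0.064 in Grid1, -0.041 to 0.125 in Kctd8 and -0.14 to 0.048 in Kctd12. The log2 difference of ratios ran from -0.103 to 0.024 for Gabbr1 to Gabbr2, -0.152 to 0.009 for Grik5 to Grik2, -0.08 to 0.16 for Gabra6 to Gabra2 and -0.01 to 0.035 for glutamate to GABA receptors. Depth limits Grin3b most, at 5 to 50 reads a library.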
